A study of Homo sapiens with 12 samples.

Results

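The 59 genes described here encode secreted components of the extracellular matrix, the enzymes that cross-link or cleave it and the inhibitors of those enzymes. They were chosen by symbol, as every gene of a set of matrix families that the annotation used here names, and make up 59 of the 14884 genes tested. That annotation names 16098 of the array's 53617 probe clusters, so it covers the families in part. The 59 comprise 12 glycoproteins and basement membrane linkers, 11 matricellular proteins, 5 lysyl oxidases, 18 matrix metalloproteinases (MMPs), 4 tissue inhibitors of metalloproteinases (TIMPs), 5 ADAMTS-like proteins and 1 collagen, COL26A1. The symbol rule also took 3 genes named after integrins that encode no integrin subunit: ITGB1BP1 and ITGB1BP2, which bind the beta-1 integrin tail, and ITGB3BP, a centromere protein. Integrin subunits, laminins, the ADAMTS proteases, SPARC, TNR, CCN1, MMP2, MMP3, MMP7, MMP9 and collagens other than COL26A1 were not analysed here, so the set is one of matrix glycoproteins and matrix enzymes rather than of integrins.

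Expression was measured in SK-N-BE(2), an established human neuroblastoma cell line with amplified MYCN, grown in medium with 10% fetal calf serum. Cells received 1 µM JQ1 with 10 nM panobinostat, 10 nM panobinostat alone, 1 µM JQ1 alone or vehicle, each for 6 h, with 3 arrays per group and 12 in all. JQ1 displaces BET bromodomain proteins from acetylated chromatin, and panobinostat inhibits histone deacetylases. The comparisons ask what each compound changed against vehicle, what the combination changed against each compound, and whether the joint change departed from the sum of the single ones.

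The extracellular matrix is the protein meshwork between cells. Basement membranes are sheets in which nidogens, perlecan and agrin link laminin to collagen networks, whereas fibrillins form the microfibrils on which elastic fibres are laid down. Lysyl oxidases cross-link collagen and elastin, MMPs cleave matrix proteins and their receptors, and TIMPs block MMPs. Matricellular proteins such as CCN2 (connective tissue growth factor) bear no load and act on cells through receptors and growth factors. In neuroblastoma, a matrix-rich programme is known as a trait of the mesenchymal-type cell state, set against the adrenergic state.

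All values are log2 signals, and changes are log2 differences with limma's standard error. The threshold for a call was 0.05 on limma's p after Benjamini-Hochberg adjustment across the 14884 genes of a comparison, and 3 arrays per group entered every mean. The 12 arrays had medians between 6.119 and 6.292, and any pair from 1 group correlated at 0.991 to 0.995 over genes, against 0.962 to 0.989 for pairs from different groups. All 9 measured genes of a list of 10 adrenergic markers had a mean signal above that of the median gene, 7.24. Their mean level lay between 9.91 and 9.94 with the combination, 10.14 and 10.18 with panobinostat, 10.58 and 10.61 with JQ1, and 10.66 and 10.69 with vehicle. Of those 9 genes, 9 fell with the combination and 7 with panobinostat, while with JQ1 2 fell and 1 rose. The called share was 100% with the combination (37.7% over all genes), 77.8% with panobinostat (29.3%) and 33.3% with JQ1 (17.6%). The 10 mesenchymal-type markers, 6 of them at or above the median gene, averaged 7.89 to 7.99 with the combination, 8.03 to 8.14 with panobinostat, 8.16 to 8.23 with JQ1 and 8.22 to 8.28 with vehicle. With the combination 2 of the 10 rose and 5 fell (70% called), with panobinostat 2 rose and 3 fell (50%), and with JQ1 1 fell (10%). Among markers of other cells, 3 of 5 Schwann cell genes were measured, 1 of them at or above the median gene, and averaged 6.51 to 6.60 with the combination, 6.43 to 6.62 with panobinostat, 6.35 to 6.42 with JQ1 and 6.26 to 6.36 with vehicle. The 4 measured of 6 endothelial genes, 1 of them at or above the median gene, averaged 6.33 to 6.47 with the combination, 6.21 to 6.38 with panobinostat, 6.09 to 6.16 with JQ1 and 5.98 to 6.17 with vehicle. The 2 measured of 8 fibroblast genes, LUM and DCN, averaged 8.40 to 8.85 with the combination, 8.65 to 9.00 with panobinostat, 8.61 to 8.86 with JQ1 and 8.91 to 9.24 with vehicle, and 1 of them was at or above the median gene. That gene, LUM, was bright, at 11.40 with the combination, 11.73 with panobinostat, 11.48 with JQ1 and 11.81 with vehicle. DCN was dim, at 5.82 with the combination and 6.34 with vehicle. The part of these shifts in the changes of matrix genes was not tested.

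Most of the matrix genes did not pass the test. With the combination 10 of the 59 rose and 8 fell, 30.5% of them, where 37.7% of all genes were called (18.2% higher and 19.5% lower). With panobinostat 7 rose and 5 fell, 20.3% of the members against 29.3% of all genes (14.5% higher and 14.8% lower). With JQ1 3 rose and 3 fell, 10.2% of the members against 17.6% of all genes (8.18% higher and 9.47% lower). In each of the 3 comparisons the members' share was therefore below that of all genes. Their median changes were 0.08 with the combination, 0.06 with panobinostat and −0.01 with JQ1, beside 0.02, 0.03 and 0.01 over all genes. The arrays of the treated group and of vehicle did not overlap for 24 members with the combination, 16 with panobinostat and 15 with JQ1, where the shares over all genes were 46.1%, 39.8% and 33.5%. The 22 members called in at least 1 of these comparisons include every family but the collagen, and 37 were called in none.

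The called members were mostly the brighter ones. Of the 29 members whose mean in at least 1 group reached the median gene, 16 were called with the combination, 9 with panobinostat and 5 with JQ1. Of the 30 dimmer members, 2 were called with the combination, 3 with panobinostat and 1 with JQ1. Brightness, by the same rule, moved with calling over all genes as well: 58.6%, 45.5% and 28.2% of the brighter genes were called in those comparisons, and 13.2%, 10.4% and 5.34% of the dimmer ones. A gene that changed could count as brighter through 1 group, so the split is not independent of the changes. AGRN (mean 7.15 over the 12 arrays), LOX (7.12), THBS2 (7.06) and COL26A1 (7.21) counted as brighter through 1 group alone. The values carry no detection call, so whether a dim gene was transcribed at all is unknown.

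**Figure D1:**
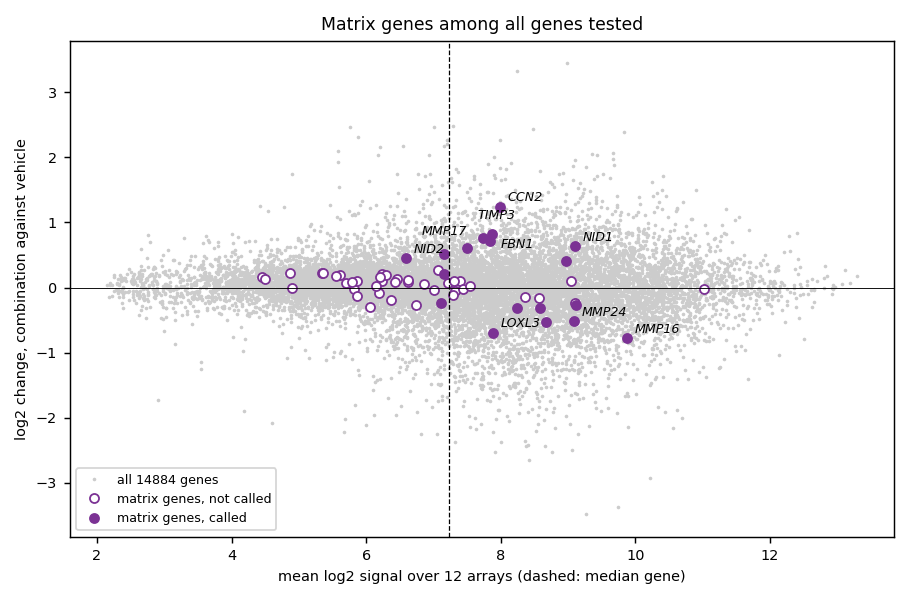
Mean log2 signal over the 12 arrays (x axis) against the log2 change of the combination against vehicle (y axis), with each grey point 1 of 14884 genes and the 59 matrix genes as circles, filled where called. The dashed line marks the median gene at 7.24. Most of the 18 filled circles lie to its right, and those of AGRN (7.15), HSPG2 (7.16), LOX (7.12) and NID2 (6.60) lie to its left. CCN2 is the highest and MMP16 the lowest circle.

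Of the 12 glycoproteins and basement membrane linkers, 5 rose and 1 fell with the combination (50% called, against 37.7% of all genes), 5 rose and 1 fell with panobinostat (50%, against 29.3%), and 1 rose with JQ1 (8.33%, against 17.6%). The family's share with panobinostat depended on the fit. When only the panobinostat and vehicle arrays were fitted, the calls of AGRN, FBN1, FBLN1 and FBLN5 ended, where 23.2% of all genes were called. The nidogens and agrin rose with panobinostat and with the combination and were not called with JQ1, whereas fibrillin-1 rose in all 3 comparisons. Between panobinostat and JQ1 the nidogens were called and agrin was not. Fibronectin was not called in any.

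NID1 encodes nidogen-1, which bridges laminin and type IV collagen in basement membranes. Its log2 signals were 9.33, 9.42 and 9.43 with the combination, 9.41, 9.28 and 9.47 with panobinostat, 8.85, 8.88 and 8.98 with JQ1, and 8.81, 8.72 and 8.77 with vehicle. The 6 arrays with panobinostat, alone or combined, all lay above the 6 without it, and the JQ1 arrays lay above the vehicle arrays. NID1 rose by 0.63 ± 0.07 with the combination (adjusted p = 2.19e-05, limma) and by 0.62 ± 0.07 with panobinostat (adjusted p = 5.89e-05). Its change with JQ1 was 0.14 ± 0.07 (adjusted p = 0.216). Panobinostat was above JQ1 by 0.48 ± 0.07 (adjusted p = 0.000508), and the combination was above JQ1 by 0.49 ± 0.07 (adjusted p = 0.000378).

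NID2, which encodes the related nidogen-2, was likewise higher in both groups given panobinostat, at a signal below the median gene. Its values were 6.91, 6.96 and 6.69 with the combination, 6.66, 6.83 and 7.08 with panobinostat, 6.43, 5.96 and 6.43 with JQ1, and 6.34, 6.35 and 6.50 with vehicle. Again the 6 arrays with panobinostat lay above the 6 without it. NID2 rose by 0.45 ± 0.14 with the combination (adjusted p = 0.0232) and by 0.46 ± 0.14 with panobinostat (adjusted p = 0.0283), and its change with JQ1 was −0.13 ± 0.14 (adjusted p = 0.631). The combination call of NID2 ended without combination replicate 1 (0.43) or 2 (0.40) or vehicle replicate 1 (0.43) or 2 (0.43), and the panobinostat call without panobinostat replicate 2 (0.47) or 3 (0.35) or vehicle replicate 1 (0.43) or 2 (0.43).

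The upstream sequences of both nidogen genes are shown because the pair rose together with panobinostat. Each is the 250 bases before the annotated start in RefSeq, build GRCh38.p14, read 5′ to 3′ on the minus strand, with capitals marking the GC box GGGCGG or its reverse complement CCGCCC, the core letters bound by Sp1-type factors. The first lies at chr1:236065091-236065340 and the second at chr14:52069060-52069309.
NID1: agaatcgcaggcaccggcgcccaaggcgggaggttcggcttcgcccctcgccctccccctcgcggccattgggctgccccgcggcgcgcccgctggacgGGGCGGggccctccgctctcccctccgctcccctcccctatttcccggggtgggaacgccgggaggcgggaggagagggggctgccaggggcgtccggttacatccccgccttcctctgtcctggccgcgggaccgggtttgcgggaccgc
NID2: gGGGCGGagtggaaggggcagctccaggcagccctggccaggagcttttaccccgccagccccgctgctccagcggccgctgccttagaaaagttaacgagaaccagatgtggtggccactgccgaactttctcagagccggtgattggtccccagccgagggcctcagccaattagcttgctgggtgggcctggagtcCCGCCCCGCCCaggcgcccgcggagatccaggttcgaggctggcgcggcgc
NID1 holds 1 match, 151 bases before the start, and NID2 holds 3, at 249, 51 and 46 bases, the last pair overlapping. Matches are common: 42.6% of the 35116 promoters in the table hold at least 1, as do 33 of the 54 promoters of 45 members (61.1%). A match is a string of letters and not a measured binding site.

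AGRN encodes agrin, a basement membrane heparan sulphate proteoglycan that clusters acetylcholine receptors at the neuromuscular junction. It measured 7.48, 7.54 and 7.27 with the combination, 7.25, 7.30 and 7.06 with panobinostat, 7.01, 7.04 and 7.13 with JQ1, and 6.91, 6.97 and 6.87 with vehicle. The combination, panobinostat and JQ1 arrays were all above the vehicle arrays, and the panobinostat and JQ1 arrays overlapped. AGRN rose by 0.51 ± 0.09 with the combination (adjusted p = 0.000554) and by 0.29 ± 0.09 with panobinostat (adjusted p = 0.0262), and changed by 0.15 ± 0.09 with JQ1 (adjusted p = 0.312). The panobinostat call of AGRN ended without panobinostat replicate 1 (0.27) or 2 (0.24) or vehicle replicate 1 (0.28) or 3 (0.27). HSPG2, which encodes perlecan, the main heparan sulphate proteoglycan of basement membranes, rose by 0.21 ± 0.07 with the combination (adjusted p = 0.0383). It is named after its values were seen, and its call ended without any 1 of 5 arrays (changes of 0.16 to 0.22).

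FBN1 encodes fibrillin-1, the main protein of microfibrils, which also store latent TGF-beta. Its signals were 8.05, 8.16 and 8.23 with the combination, 7.53, 7.73 and 7.85 with panobinostat, 8.09, 8.05 and 8.09 with JQ1, and 7.45, 7.35 and 7.51 with vehicle. The 6 arrays with JQ1 lay above the 6 without it, and the panobinostat arrays lay just above the vehicle arrays. FBN1 rose 1.64-fold with the combination (log2 0.71 ± 0.09, adjusted p = 4.07e-05) and 1.56-fold with JQ1 (0.64 ± 0.09, adjusted p = 0.000408). The rise with panobinostat was smaller, at 0.27 ± 0.09 (adjusted p = 0.0352), and its call ended without panobinostat replicate 2 (0.26) or 3 (0.20) or vehicle replicate 1 (0.28) or 2 (0.23). Panobinostat was below JQ1 by a log2 change of −0.37 ± 0.09 (adjusted p = 0.00865).

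Among the fibulins, which tie elastic fibres and basement membranes together, only FBLN1 and FBLN5 were called against vehicle. The largest fibulin change against vehicle, that of FBLN2 with panobinostat, was 0.31 ± 0.15 and was not called (adjusted p = 0.159, limma). FBLN1 measured 8.93, 9.01 and 8.99 with the combination, 9.08, 8.98 and 9.12 with panobinostat, 9.16, 9.17 and 9.19 with JQ1, and 9.26, 9.23 and 9.23 with vehicle. The combination arrays were all below the JQ1 and vehicle arrays. FBLN1 changed by −0.27 ± 0.06 with the combination (adjusted p = 0.00368). Its fall with panobinostat was smaller (−0.18 ± 0.06, adjusted p = 0.0418), and the panobinostat call ended without any 1 of 10 of the 12 arrays (changes of −0.19 to −0.14). FBLN5, a dim gene, rose with panobinostat by 0.26 ± 0.09 (adjusted p = 0.0476), was not called with the combination (0.10 ± 0.09, adjusted p = 0.433), and lost its call without any 1 of 9 arrays (changes of 0.20 to 0.30).

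FN1 encodes fibronectin, the adhesive glycoprotein that integrins assemble into fibrils. It measured 9.06, 9.00 and 9.19 with the combination, 9.08, 9.07 and 9.32 with panobinostat, 8.81, 8.94 and 9.14 with JQ1, and 8.82, 8.96 and 9.17 with vehicle. All 4 groups overlapped, and replicate 3 was the highest array in each. Its change with the combination was 0.10 ± 0.11 (adjusted p = 0.558), with a 95% interval of −0.15 to 0.35.

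Among the matricellular genes, CCN2 made the largest change of the 59. With the combination 1 of the 11 (CCN2) rose and 1 (THBS3) fell, with JQ1 1 (CCN2) rose, and with panobinostat 1 (CCN3) fell. The called share was 18.2% with the combination (37.7% over all genes), 9.09% with JQ1 (17.6%) and 9.09% with panobinostat (29.3%), below that of all genes each time. Thrombospondins, large secreted glycoproteins that regulate adhesion and angiogenesis, were called in few comparisons, and THBS1 separated the 2 compounds. Tenascin-C was not called.

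CCN2 encodes connective tissue growth factor, a well-known target of YAP and TEAD factors and of TGF-beta. Its signals were 8.27, 8.37 and 8.96 with the combination, 7.85, 7.28 and 8.09 with panobinostat, 8.06, 8.18 and 8.99 with JQ1, and 7.55, 6.91 and 7.41 with vehicle. The combination and JQ1 arrays all lay above the vehicle arrays, and the panobinostat arrays overlapped the vehicle arrays. Replicate 3 stood above replicates 1 and 2 with the combination and with JQ1. It was also the highest array with panobinostat, but lay below replicate 1 with vehicle. CCN2 rose 2.37-fold with the combination (1.24 ± 0.29, adjusted p = 0.00429) and 2.17-fold with JQ1 (1.12 ± 0.29, adjusted p = 0.0187). Its change with panobinostat was 0.45 ± 0.29 (adjusted p = 0.289). The JQ1 call of CCN2 ended without JQ1 replicate 3 (0.83, adjusted p = 0.0698) or vehicle replicate 2 (0.93, adjusted p = 0.0762). On its brighter probe cluster CCN2 was the only member past a 2-fold change in either of these comparisons, and no member reached it with panobinostat. The combination and JQ1 differed by 0.12 ± 0.29 for CCN2 (adjusted p = 0.806). A second, dim probe cluster annotated to CCN2, with a mean of 3.35, was not called, with changes of 0.24 with the combination, 0.33 with panobinostat and 0.23 with JQ1. With the mean of both clusters CCN2 was still called but stayed under 2-fold, at 0.74 with the combination (adjusted p = 0.0129) and 0.67 with JQ1 (adjusted p = 0.0418). Over the 12 arrays the genes whose signals were most like that of CCN2 were ARMC1 (Pearson r = 0.934), KLF2 (0.931) and CLUH (0.926), as a description over arrays that share the 4 treatments.

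The upstream sequences of CCN2 and FBN1, the members with the largest rises with JQ1, are shown with the TEAD core CATTCC or its reverse complement GGAATG in capitals. Both are the 250 bases before the RefSeq start in GRCh38.p14 on the minus strand, CCN2 at chr6:131951373-131951622 and FBN1 at chr15:48644971-48645220.
CCN2: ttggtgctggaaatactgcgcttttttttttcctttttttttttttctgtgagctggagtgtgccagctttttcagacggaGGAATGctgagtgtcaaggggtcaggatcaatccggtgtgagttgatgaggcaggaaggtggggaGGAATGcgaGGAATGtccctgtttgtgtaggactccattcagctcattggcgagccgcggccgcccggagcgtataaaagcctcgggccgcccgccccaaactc
FBN1: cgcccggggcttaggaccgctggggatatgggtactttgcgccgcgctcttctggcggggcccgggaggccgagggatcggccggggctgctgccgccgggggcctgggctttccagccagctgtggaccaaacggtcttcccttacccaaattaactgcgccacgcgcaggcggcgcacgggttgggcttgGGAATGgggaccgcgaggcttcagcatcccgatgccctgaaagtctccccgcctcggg
CCN2 holds 3 matches, at 169, 104 and 95 bases before the start, and FBN1 holds 1, at 58 bases. At least 1 match occurs in 11.9% of all 35116 promoters and in 8 of the 54 promoters of members (14.8%). The AP-1 letters TGANTCA occur in 6.57% of all promoters and in 2 of the members' (3.70%), and the E-box CACGTG in 6.34% and in 3 (5.56%). The GC box letters marked above for the nidogen genes have 3 matches in CCN2 and 0 in FBN1. The TEAD letters have 0 matches in NID1 and 0 in NID2.

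CCN3 encodes a CCN family protein that often opposes CCN2. Its signals, below that of the median gene, were 6.82, 6.86 and 6.72 with the combination, 6.19, 6.02 and 6.55 with panobinostat, 6.81, 6.80 and 6.54 with JQ1, and 6.74, 6.60 and 6.82 with vehicle. Panobinostat replicates 1 and 2 gave the lowest array values, and its replicate 3, at 6.55, overlapped JQ1 replicate 3, at 6.54. The combination arrays lay among or just above the vehicle arrays. CCN3 fell with panobinostat (−0.46 ± 0.13, adjusted p = 0.0156), and its change with the combination was 0.08 ± 0.13 (adjusted p = 0.677). The combination was above panobinostat by 0.55 ± 0.13 (adjusted p = 0.0138). The panobinostat call of CCN3 ended without panobinostat replicate 1 (−0.43) or 2 (−0.35) or vehicle replicate 3 (−0.42).

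THBS1, which encodes thrombospondin-1, an activator of latent TGF-beta, measured 8.27, 8.46 and 8.74 with the combination, 9.01, 8.63 and 9.06 with panobinostat, 8.12, 8.12 and 8.38 with JQ1, and 8.47, 8.72 and 8.79 with vehicle. The panobinostat and vehicle arrays all lay above the JQ1 arrays and overlapped each other. In each of the 4 groups replicate 3 was the highest array. Panobinostat was above JQ1 by 0.69 ± 0.15 (adjusted p = 0.00518). Neither compound was called against vehicle, with 0.24 ± 0.15 for panobinostat (adjusted p = 0.26) and −0.45 ± 0.15 for JQ1 (adjusted p = 0.0553). THBS2 was above JQ1 with the combination by 0.38 ± 0.12 (adjusted p = 0.0351) and was not called against vehicle (0.26 ± 0.12, adjusted p = 0.106). THBS3 fell with the combination (−0.31 ± 0.11, adjusted p = 0.0391) although 1 combination array, at 8.28, exceeded the lowest vehicle array, at 8.25. The call of THBS3 ended without any 1 of 6 arrays (changes of −0.32 to −0.21). TNC, which encodes tenascin-C, changed by 0.11 ± 0.09 with the combination (adjusted p = 0.398, 95% interval −0.09 to 0.30).

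**Figure D2:**
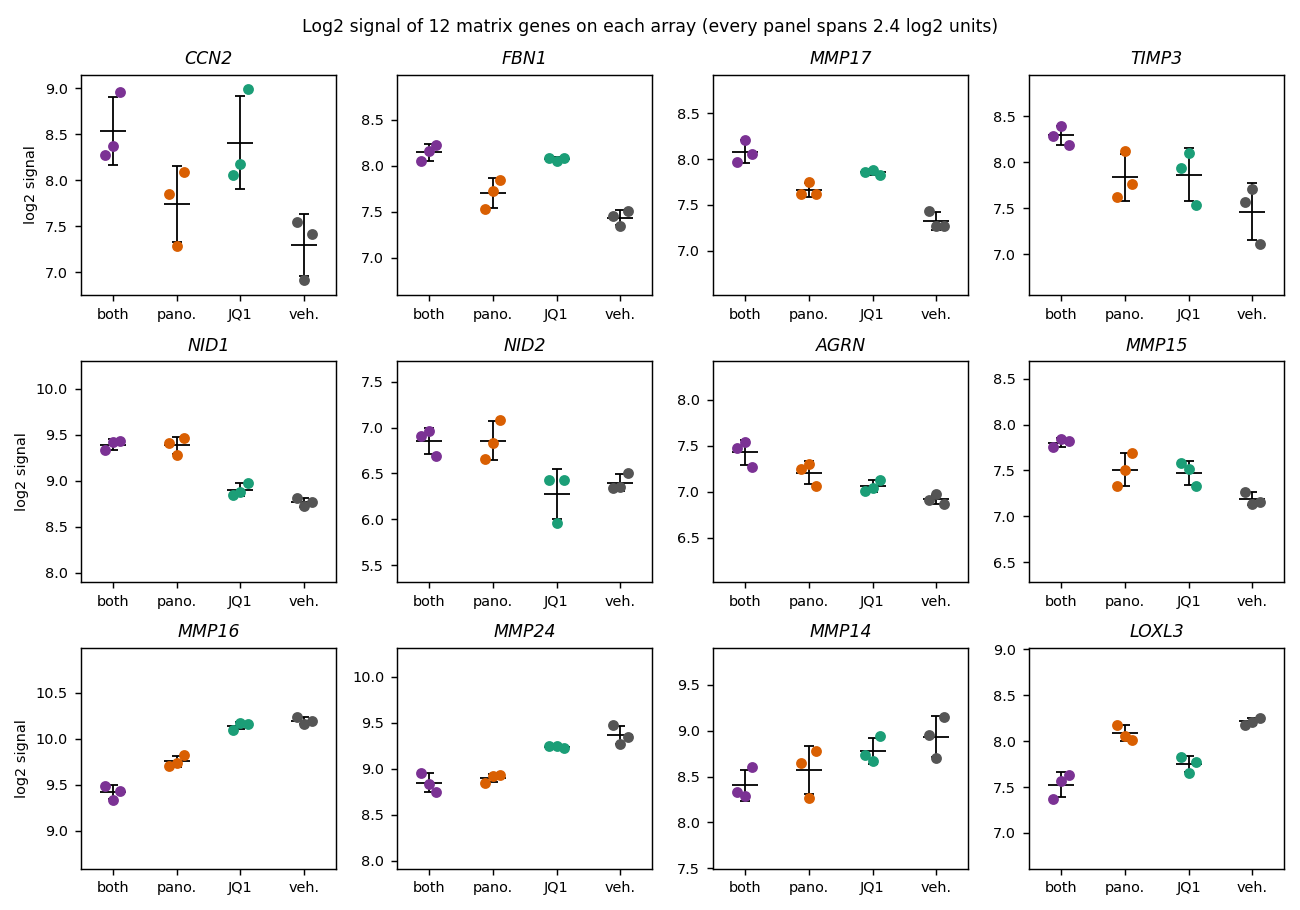
Log2 signal of 12 matrix genes on each of the 12 arrays (points, 3 per group), with the group mean as a dash and the SD as bars, in the order both compounds, panobinostat, JQ1 and vehicle. All panels span the same range of log2 units; NID1 is high wherever panobinostat was given, FBN1 is highest wherever JQ1 was given, and MMP16 is lowest with both compounds.

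The lysyl oxidases called against vehicle fell. Of the 5 enzymes, 2 fell with the combination (40% called, near the 37.7% of all genes) and 2 fell with JQ1 (40%, against 17.6%). With panobinostat none was called, where 29.3% of all genes were (adjusted p = 0.177 for LOX and 0.278 for LOXL3, limma). LOXL3, a cross-linking enzyme that also acts in the nucleus, measured 7.37, 7.57 and 7.63 with the combination, 8.18, 8.05 and 8.01 with panobinostat, 7.83, 7.65 and 7.77 with JQ1, and 8.18, 8.21 and 8.25 with vehicle. The combination arrays were below every JQ1 array, which were below every panobinostat and vehicle array. LOXL3 fell with the combination (−0.69 ± 0.08, adjusted p = 3.81e-05) and with JQ1 (−0.46 ± 0.08, adjusted p = 0.00246). The combination was below panobinostat by a log2 change of −0.56 ± 0.08 (adjusted p = 0.00114).

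LOX, the founding member of the family, measured 7.06, 7.11 and 7.04 with the combination, 7.16, 7.04 and 7.26 with panobinostat, 6.86, 6.96 and 6.96 with JQ1, and 7.38, 7.20 and 7.33 with vehicle. JQ1 gave the lowest values, and all combination and JQ1 arrays were below vehicle. LOX fell with the combination (−0.23 ± 0.08, adjusted p = 0.0294), and its fall with JQ1 was larger (−0.38 ± 0.08, adjusted p = 0.00488). The combination call of LOX ended without combination replicate 1 (−0.23) or 3 (−0.22) or vehicle replicate 1 (−0.20) or 3 (−0.22). LOXL2, an enzyme tied to stiff tumour matrix, was not called against vehicle. Its signals were 8.12, 8.24 and 8.32 with the combination, 8.38, 8.18 and 8.27 with panobinostat, 8.45, 8.63 and 8.57 with JQ1, and 8.35, 8.38 and 8.37 with vehicle. The JQ1 arrays lay above all others. The combination was below JQ1 by −0.32 ± 0.08 (adjusted p = 0.00959) and panobinostat was below JQ1 by −0.27 ± 0.08 (adjusted p = 0.0254).

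Of the 18 MMP genes, 3 rose and 3 fell with the combination, 2 rose and 2 fell with panobinostat, and 1 rose with JQ1, so that 33.3% were called with the combination (37.7% over all genes), 22.2% with panobinostat (29.3%) and 5.56% with JQ1 (17.6%). The 6 called with the combination are MMP1, a secreted interstitial collagenase, and 5 membrane-type MMPs, which sit on the cell surface. MMP14, MMP15, MMP16 and MMP24 cross the membrane, and MMP17 is held by a lipid (GPI) anchor. MMP14, MMP16 and MMP24 fell with the combination, and MMP15 and MMP17 rose. MMP25, the other GPI-anchored MMP, has 3 probe clusters, and none was called. Of the 18 genes, 8 lie on chromosome 11, where most of the secreted collagenase, stromelysin and related genes form a cluster, and 1 of these 8, MMP1, had a mean signal at or above the median gene.

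MMP16 encodes MT3-MMP, a membrane-type protease prominent in nervous tissue. Its signals were 9.49, 9.33 and 9.43 with the combination, 9.70, 9.74 and 9.82 with panobinostat, 10.10, 10.17 and 10.16 with JQ1, and 10.24, 10.16 and 10.19 with vehicle. The combination arrays were below every panobinostat array, those were below every JQ1 and vehicle array, and JQ1 overlapped vehicle. MMP16 fell with the combination (−0.78 ± 0.07, adjusted p = 2.44e-06) and with panobinostat (−0.44 ± 0.07, adjusted p = 0.000351), and its change with JQ1 was −0.05 ± 0.07 (adjusted p = 0.656). The combination was below panobinostat by −0.33 ± 0.07 (adjusted p = 0.00577) and below JQ1 by −0.72 ± 0.07 (adjusted p = 1.73e-05). Its departure from the sum of the single changes was −0.28 ± 0.09 (adjusted p = 0.199).

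MMP24 encodes MT5-MMP, which is abundant in brain. On its brighter probe cluster it measured 8.96, 8.84 and 8.75 with the combination, 8.85, 8.92 and 8.93 with panobinostat, 9.25, 9.25 and 9.23 with JQ1, and 9.48, 9.27 and 9.35 with vehicle. The 6 arrays with panobinostat lay below the 6 without it. There MMP24 fell with the combination (−0.52 ± 0.07, adjusted p = 0.000149) and with panobinostat (−0.47 ± 0.07, adjusted p = 0.000545). A second cluster annotated to MMP24, with a mean of 8.04, changed by 0.29 with the combination (adjusted p = 0.0964), 0.08 with panobinostat and 0.05 with JQ1, so the direction differed between the clusters. With the mean of both clusters neither call remained (−0.11 for the combination, adjusted p = 0.3, and −0.20 for panobinostat, adjusted p = 0.0815).

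MMP14 encodes MT1-MMP, the main pericellular collagenase and an activator of proMMP2. It measured 8.33, 8.29 and 8.60 with the combination, 8.65, 8.27 and 8.78 with panobinostat, 8.73, 8.67 and 8.94 with JQ1, and 8.95, 8.70 and 9.15 with vehicle. The combination arrays were all below vehicle, and the single compounds overlapped vehicle. Replicate 3 was the highest and replicate 2 the lowest array in each of the 4 groups. Within each replicate number both single compounds lay below vehicle. MMP14 fell with the combination (−0.53 ± 0.15, adjusted p = 0.0147). Its call ended without combination replicate 1 (−0.49) or 2 (−0.47) or vehicle replicate 3 (−0.42). The changes of MMP14 with panobinostat and with JQ1 were −0.36 ± 0.15 (adjusted p = 0.0924) and −0.15 ± 0.15 (adjusted p = 0.572).

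MMP17 encodes MT4-MMP, a GPI-anchored enzyme. It measured 7.97, 8.21 and 8.05 with the combination, 7.62, 7.75 and 7.62 with panobinostat, 7.86, 7.88 and 7.83 with JQ1, and 7.44, 7.27 and 7.27 with vehicle. All 9 treated arrays lay above the 3 vehicle arrays, with panobinostat lowest among the treated groups. MMP17 rose by 0.75 ± 0.08 with the combination (adjusted p = 1.4e-05). Panobinostat gave a rise of 0.34 ± 0.08 (adjusted p = 0.00708), and JQ1 gave a rise of 0.53 ± 0.08 (adjusted p = 0.000794). MMP17 and FBN1 were the 2 members called in all 3 comparisons with vehicle.

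MMP15, which encodes MT2-MMP, measured 7.75, 7.84 and 7.82 with the combination, 7.33, 7.51 and 7.69 with panobinostat, 7.58, 7.52 and 7.33 with JQ1, and 7.27, 7.14 and 7.16 with vehicle. The combination arrays lay above all others, and every treated array lay above vehicle. MMP15 rose by 0.61 ± 0.10 with the combination (adjusted p = 0.000304) and by 0.32 ± 0.10 with panobinostat (adjusted p = 0.0268). Its change with JQ1 was 0.28 ± 0.10 (adjusted p = 0.0656), and it was called after median centring of the arrays (0.31) and after quantile normalization (0.30). The panobinostat call of MMP15 ended without panobinostat replicate 2 (0.32) or 3 (0.23) or vehicle replicate 2 (0.30) or 3 (0.30). MMP1, named after its values were seen, rose by 0.41 ± 0.13 with the combination (adjusted p = 0.0302), and its call ended without combination replicate 2 (0.36) or 3 (0.41) or vehicle replicate 1 (0.34) or 3 (0.39).

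**Figure D3:**
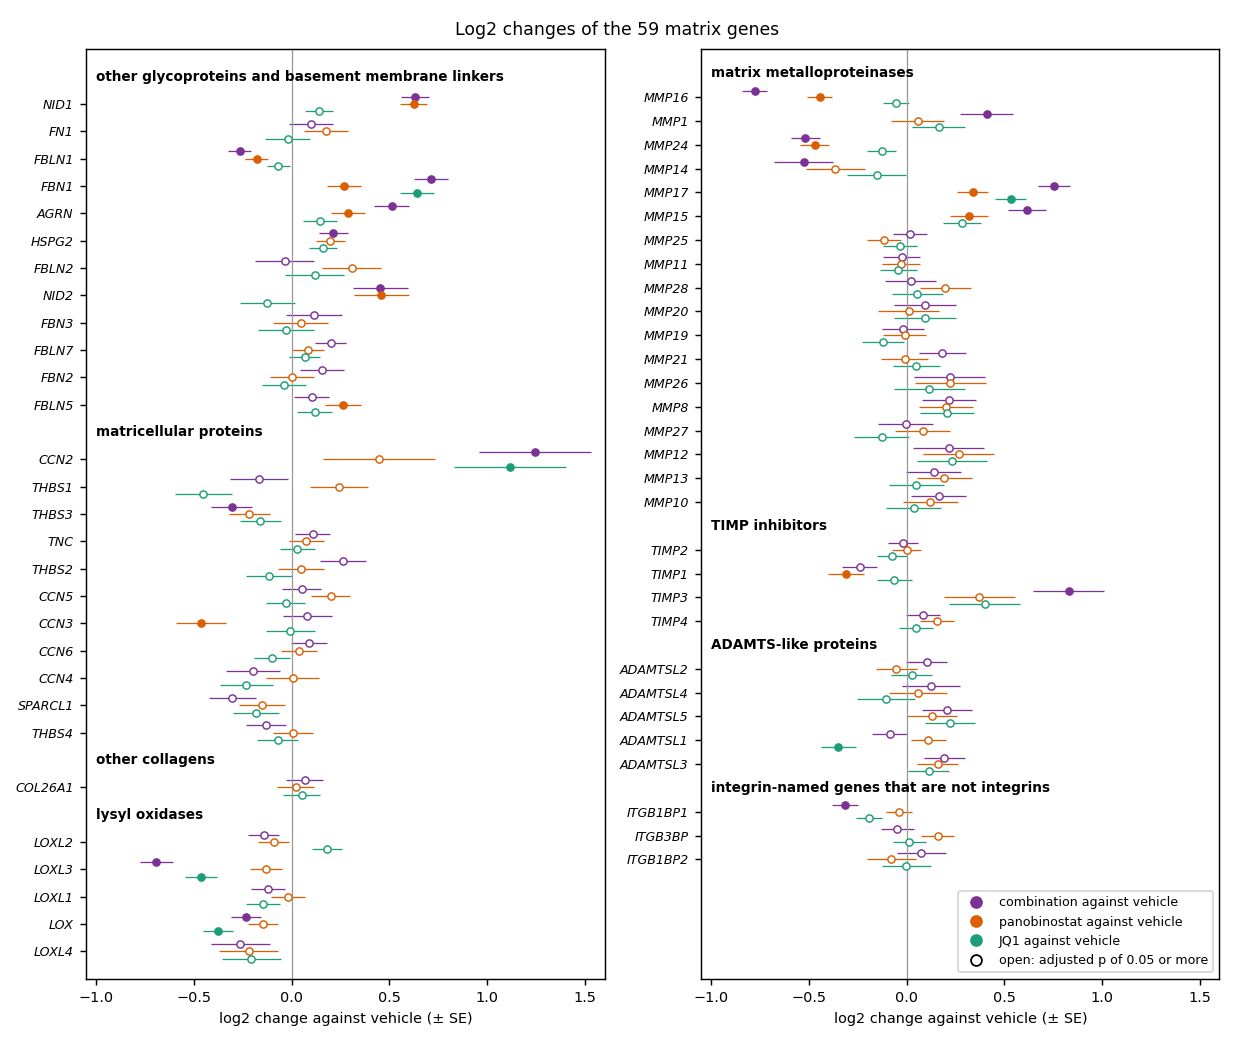
Log2 change against vehicle (x axis, ± SE from limma) of the 59 matrix genes grouped by family, for the combination, panobinostat and JQ1, with filled points called at an adjusted p under 0.05. Filled points sit mostly among the linkers, the membrane-type MMPs and a few enzymes, and the widest bars are those of CCN2.

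The 4 inhibitors of MMPs did not move together: with the combination TIMP3 rose, with panobinostat TIMP1 fell, and with JQ1 none was called. The called share was 25% with the combination (37.7% over all genes), 25% with panobinostat (29.3%) and 0% with JQ1 (17.6%). TIMP3 encodes the inhibitor that binds the matrix itself and also blocks ADAM proteases. Its signals were 8.29, 8.40 and 8.19 with the combination, 7.62, 8.12 and 7.76 with panobinostat, 7.94, 8.10 and 7.54 with JQ1, and 7.57, 7.71 and 7.11 with vehicle. The combination arrays lay above all others, and each single compound overlapped vehicle. Replicate 2 was the highest array in each of the 4 groups, and within each replicate number both single compounds lay above vehicle. TIMP3 rose 1.78-fold with the combination (0.83 ± 0.18, adjusted p = 0.003). Its changes with panobinostat and with JQ1 were 0.37 ± 0.18 (adjusted p = 0.153) and 0.40 ± 0.18 (adjusted p = 0.168).

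TIMP1, a secreted inhibitor of most MMPs, measured 8.88, 9.09 and 9.08 with the combination, 9.01, 8.75 and 9.08 with panobinostat, 9.20, 9.16 and 9.23 with JQ1, and 9.30, 9.28 and 9.19 with vehicle. The combination and panobinostat arrays were all below vehicle. TIMP1 fell with panobinostat (−0.31 ± 0.09, adjusted p = 0.0235), and its change with the combination was −0.24 ± 0.09 (adjusted p = 0.0581). The panobinostat call of TIMP1 ended without panobinostat replicate 2 (−0.21) or vehicle replicate 1 (−0.29) or 2 (−0.30). TIMP2, which together with MMP14 activates proMMP2, ranged from 10.94 to 11.15 over the 12 arrays. Its change with the combination was −0.02 ± 0.08 (adjusted p = 0.889, 95% interval −0.18 to 0.15).

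Of the remaining families, ADAMTSL1, a protease-like matrix protein without the catalytic domain, fell with JQ1 (−0.35 ± 0.09, adjusted p = 0.0191). It is a dim gene, and the call ended without JQ1 replicate 1 (−0.36) or 3 (−0.33) or vehicle replicate 2 (−0.30) or 3 (−0.31). The brightest of that family, ADAMTSL2, was not called and changed by 0.10 ± 0.10 with the combination (adjusted p = 0.503). COL26A1, the collagen, measured 7.02 to 7.37 over the 12 arrays and changed by 0.07 ± 0.09 with the combination (adjusted p = 0.638). ITGB1BP1, whose product ICAP1 keeps beta-1 integrin inactive, measured 8.38, 8.34 and 8.51 with the combination, 8.68, 8.70 and 8.67 with panobinostat, 8.61, 8.47 and 8.52 with JQ1, and 8.72, 8.70 and 8.75 with vehicle. The combination arrays were all below the panobinostat and vehicle arrays. ITGB1BP1 fell with the combination (−0.32 ± 0.07, adjusted p = 0.00249), and its change with JQ1 was −0.19 ± 0.07 (adjusted p = 0.0679). ITGB3BP, the centromere protein, was not called (−0.05 ± 0.08 with the combination, adjusted p = 0.717).

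Direct comparison of the treatments tested the differences between them. Panobinostat and JQ1 differed for 11 members, 6 higher and 5 lower with panobinostat, where 23.3% of all genes were called (11.6% in each direction). The arrays of these groups did not overlap for 16 members, with 39.3% over all genes. The 6 were NID1, NID2, THBS1, ADAMTSL1, LOXL3 and LOX, and the 5 were MMP16, CCN3, FBN1, MMP24 and LOXL2. The 2 compounds have different targets and were given at different doses, so these differences hold for 10 nM panobinostat and 1 µM JQ1 at 6 h.

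Against JQ1 the combination changed 9 members, 5 higher (NID2, NID1, THBS2, AGRN and MMP15) and 4 lower (MMP16, MMP24, LOXL2 and FBLN1), where 25.6% of all genes were called (11.7% higher and 13.9% lower). The arrays did not overlap for 20 members, with 41.7% over all genes. Against panobinostat it changed 6, with CCN3, FBN1 and MMP17 higher and MMP16, LOXL3 and ITGB1BP1 lower, where 14.7% of all genes were called (6.13% higher and 8.55% lower). The arrays did not overlap for 11 members, with 30.9% over all genes. MMP16 was the 1 member called lower with the combination than with each single compound.

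No member passed the test of the joint change against the sum of the single changes (0 of 59 in limma, where 0.759% of all genes were called, 0.309% higher and 0.45% lower, and 3 of 59 at an unadjusted p under 0.05). The 3 were CCN3 (0.55 ± 0.18, adjusted p = 0.188), MMP16 and LOX (0.29 ± 0.11, adjusted p = 0.245). These standard errors are wider than those of the single changes, so the precision of this test was lower.

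Genes that act with the matrix set were read from 6 further lists. Their counts stand beside the shares over all genes, which were 37.7% called with the combination (18.2% higher, 19.5% lower), 29.3% with panobinostat (14.5% higher, 14.8% lower) and 17.6% with JQ1 (8.18% higher, 9.47% lower). Of 29 measured proteoglycan and other matrix protein genes 4 rose and 10 fell with the combination, 4 rose and 4 fell with panobinostat, and 2 rose and 4 fell with JQ1. Those are 48.3% of the list with the combination, 27.6% with panobinostat and 20.7% with JQ1, and the shares with panobinostat and JQ1 lie near those over all genes. The median change of that list was −0.00 with the combination, 0.05 with panobinostat and −0.02 with JQ1. VCAN, which encodes versican, a large chondroitin sulphate proteoglycan, fell by 1.46 with the combination, 0.89 with panobinostat and 0.57 with JQ1 on the log2 scale (adjusted p = 2.32e-07 for the combination). EMILIN1, an elastic fibre glycoprotein, fell by 1.32 with the combination, 0.92 with panobinostat and 0.77 with JQ1. SDC1, which encodes the membrane proteoglycan syndecan-1, fell by 0.95 with the combination and 0.81 with panobinostat, and its change with JQ1 was −0.32 (adjusted p = 0.0519).

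Of 14 measured TGF-beta ligands, receptors and SMADs, 2 rose and 6 fell with the combination, 2 rose and 6 fell with panobinostat, and 1 rose and 3 fell with JQ1. The called share was 57.1% with the combination (37.7% over all genes), 57.1% with panobinostat (29.3%) and 28.6% with JQ1 (17.6%), with list medians of −0.18 for the combination, −0.15 for panobinostat and −0.05 for JQ1. SMAD6, an inhibitory SMAD, fell by 1.66 ± 0.14 with the combination (adjusted p = 1.95e-06), and ENG, which encodes the co-receptor endoglin, fell by 1.24 ± 0.14. SKI, a repressor of SMAD-driven transcription, rose by 0.84 with the combination. Of 12 collagen-processing genes 1 rose and 4 fell with the combination, 1 rose and 5 fell with panobinostat, and 1 rose and 2 fell with JQ1. The called share was 41.7% with the combination, near the 37.7% over all genes, 50% with panobinostat (29.3%) and 25% with JQ1 (17.6%), with medians of −0.10 for the combination, −0.23 for panobinostat and −0.11 for JQ1. PCOLCE2, an enhancer of procollagen cleavage, fell by 1.49 with the combination (adjusted p = 2.75e-08). With the combination P3H1, a collagen prolyl hydroxylase, rose by 0.61, and P3H3, a related protein, fell by 0.61.

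Of the 13 measured YAP and TEAD target genes, CCN2 among them, 2 rose and 3 fell with the combination, 1 rose and 2 fell with panobinostat, and 2 rose with JQ1. The called share was 38.5% with the combination, 23.1% with panobinostat and 15.4% with JQ1, close to or below the 37.7%, 29.3% and 17.6% over all genes. Their median change was −0.13 with the combination, −0.01 with panobinostat and −0.11 with JQ1. FJX1, a secreted kinase-like target, fell by 1.70 ± 0.07 with the combination (adjusted p = 2.21e-08) and by 1.24 ± 0.07 with panobinostat, and its change with JQ1 was −0.19 ± 0.07 (adjusted p = 0.117). DOCK5, a guanine nucleotide exchange factor for Rac, fell by 0.86 with the combination.

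Of 20 focal adhesion genes 3 rose and 8 fell with the combination, 4 rose and 2 fell with panobinostat, and 3 rose and 4 fell with JQ1. The called share was 55% with the combination (37.7% over all genes), 30% with panobinostat, near the 29.3% over all genes, and 35% with JQ1 (17.6%), with medians of −0.15 for the combination, −0.08 for panobinostat and −0.02 for JQ1. VCL, which encodes the actin linker vinculin, rose by 1.31 with the combination, 0.96 with panobinostat and 0.70 with JQ1 (adjusted p = 6.62e-08 for the combination). SRC, the adhesion-linked tyrosine kinase, fell by 0.91 with the combination, 0.68 with panobinostat and 0.77 with JQ1, and FERMT1, which encodes the integrin activator kindlin-1, fell by 0.97 with the combination. Of 14 genes of the plasminogen system, cathepsins and ADAM proteases, 4 rose and 2 fell with the combination, 4 rose and 2 fell with panobinostat, and 3 rose and 2 fell with JQ1. The called share was 42.9% with the combination (37.7% over all genes), 42.9% with panobinostat (29.3%) and 35.7% with JQ1 (17.6%), with medians of 0.02 for the combination, 0.07 for panobinostat and 0.07 for JQ1. CTSK, the collagen-cleaving cathepsin K, rose by 1.01 with the combination (adjusted p = 2.74e-05), 0.83 with panobinostat and 0.61 with JQ1. RECK, a membrane inhibitor of MMP14 and other MMPs, rose by 0.95 with the combination (adjusted p = 8.46e-06), 0.66 with panobinostat and 0.68 with JQ1. ADAM15, a membrane-bound disintegrin and metalloproteinase, rose by 0.68 with the combination, 0.39 with panobinostat and 0.40 with JQ1. Its panobinostat call ended without panobinostat replicate 2 or 3 or vehicle replicate 2 or 3 (0.29 to 0.39), and its JQ1 call without JQ1 replicate 1 or 3 or vehicle replicate 2 or 3 (0.33 to 0.40). Both calls also ended with a replicate block and in a fit of only the groups compared.

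**Figure D4:**
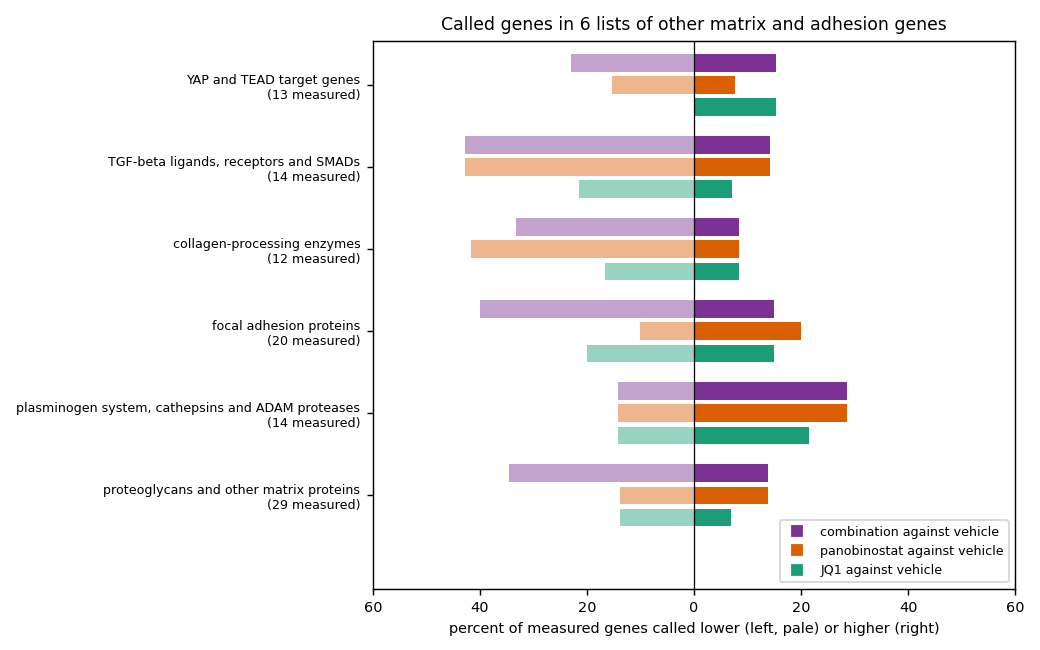
Percent of the measured genes of 6 further matrix and adhesion lists called lower (left, pale bars) or higher (right, dark bars) against vehicle, for the combination, panobinostat and JQ1. The TGF-beta list has the longest bars to the left (6 of 14 genes with the combination and with panobinostat), and the plasminogen, cathepsin and ADAM list extends further to the right than to the left in each comparison.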

How the data were processed

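The authors' deposited table holds 1 log2 signal per transcript cluster (the probes assigned to 1 locus) and array, for 53617 clusters on 12 Affymetrix Human Gene 2.0 ST arrays of biotin-labelled cRNA. The log2 reading is taken from the values, which run from 1.391 to 14.1 without zeros; their log base is not stated, so folds rest on that reading. For background correction, normalization and build, the sources used here give nothing. MAS5 and affy are named without a role, per the submitters' processing notes. A platform table names 16098 clusters, each with 1 gene symbol, and each of 14884 genes was read from its brightest cluster (highest mean of 12 values). The 59 members had 64 clusters, and 4 members had more than 1. Values were used as deposited, with no detection call, so nothing shows how far a signal stood above background, and precision is limited by the number of arrays.

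Changes were fitted in R 4.3.3 with limma 3.58.1 (lmFit, eBayes, 1 coefficient per group, 8 residual and 3.457 prior degrees of freedom) for 6 comparisons between groups and the interaction, with two-sided p-values adjusted by the Benjamini-Hochberg method over 14884 genes within a comparison. The fit was tested on simulated data. With 3 arrays in each group the smallest two-sided p of an exact permutation test is 0.1, so none was used. The labels do not say that replicates were separate cultures, so p-values reflect the spread between these samples alone, and that spread may be technical.

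Members, lists, markers and tests were chosen with earlier results of these data known. Named were, per comparison with vehicle, up to 8 rising and 8 falling called members with the largest change, up to 4 per direction in the other comparisons, the brightest member of each family, CCN2, FN1, TNC, THBS1 and TIMP1, up to 3 called members of each further list with the largest change in the combination, and the 3 genes most like CCN2. HSPG2 and MMP1 were added to these. Promoters came from RefSeq (GRCh38.p14), which matched 45 members. Alternatives were median centring, quantile normalization, dropping genes below percentile 40 of mean signal, a replicate block, the mean of a gene's clusters, a fit of only the groups compared, an intensity trend, and leaving out each array.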

Additional observations from a re-analysis of the deposited data

Results flagged for a closer look

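A second probe cluster annotated to TIMP3, cluster 16934302, was not used for the gene because its mean was lower, and it gave a signal of its own. It measured 6.30, 6.46 and 6.18 with the combination, 6.27, 6.18 and 6.18 with panobinostat, 6.17, 6.45 and 5.89 with JQ1, and 5.83, 5.87 and 6.04 with vehicle. Its log2 change with the combination was 0.40 ± 0.13 (adjusted p = 0.0268, limma, over 16098 named clusters), in the same direction as the cluster that stood for TIMP3 (0.83 ± 0.18). All 3 combination arrays lay above the 3 vehicle arrays on both clusters.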

How the results depend on the processing

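The count of matrix genes called with panobinostat moved most: 12 in the reported fit and 5 (3 higher, 2 lower) when only the 2 groups compared were fitted, a fit with fewer arrays. Leaving out each array in turn gave 13 to 19 calls for the combination, 5 to 11 for panobinostat (6 without vehicle replicate 1, 5 without panobinostat replicate 2) and 5 to 7 for JQ1. It gave 6 to 10 for the combination against JQ1, 4 to 9 for the combination against panobinostat, 7 to 11 for panobinostat against JQ1 (7 without JQ1 replicate 2) and 0 to 0 for the interaction. The other alternatives left every count within 1.5 times. Against JQ1 the combination had 7 higher and 3 lower after quantile normalization (5 and 4 as reported), and panobinostat had 5 higher and 7 lower after median centring (6 and 5 as reported). Of 36 called values of named members against vehicle, 18 were lost under no alternative, 18 were lost under at least 1 of up to 19, and 0 reversed; of 54 that were not called, 7 were called under some alternative. The fit of only the groups compared ended the panobinostat calls of AGRN, CCN3, FBLN1, FBLN5, FBN1, MMP15 and TIMP1. It also ended the combination calls of HSPG2, LOX and THBS3. A replicate block ended those of HSPG2 and LOX, and the panobinostat calls of FBLN1, FBLN5 and MMP15. An intensity trend ended the combination calls of HSPG2 and LOX. With panobinostat, quantile normalization ended the calls of FBLN1, FBLN5 and NID2, and FBLN5 was also lost with the trend and after median centring. For these losses the cause was not tested. Beyond the replicate number, the sample titles link no arrays across groups. Deviations of same-numbered arrays from their group means correlated at −0.69 to 0.24 over 18 pairs, 4 of them above 0.1. The largest were in replicate 1, at −0.69 for panobinostat and vehicle and −0.65 for the combination and vehicle. There the combination and panobinostat gave 0.24, and JQ1 and vehicle 0.20. Of 12 arrays 0 correlated best with their own number, and the source of these correlations was not tested. That check was over all genes, and single members differed from it. FN1, MMP14 and THBS1 were highest in replicate 3 in all 4 groups, and TIMP3 in replicate 2. The fit with a replicate block called 16 members for the combination, 11 for panobinostat, 7 for JQ1, 10 for the combination against JQ1, 9 (6 higher, 3 lower) for the combination against panobinostat, 10 for panobinostat against JQ1 and 0 for the interaction. The filter on dim genes removed 27 members and left 32. Of the 47 called values of 17 genes from the further lists, 2 were lost under some alternative, both of ADAM15. These ended with a replicate block, in the fit of only the groups compared and without single arrays.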
